A study of Mus musculus with 6 samples.

Results

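Kruppel-like factors are zinc-finger transcription factors, and 10 of them (Klf2, Klf3, Klf4, Klf5, Klf6, Klf7, Klf9, Klf10, Klf13 and Klf15) were followed in the mouse aortic valve from postnatal day 2 (PND2) to 4 months of age. The members were taken by gene name from the deposited gene table, and all 10 names were found, each once, among 46983 genes. Whole aortic valves of wild type C57BL/6J mice were sequenced as 3 libraries per age, and every library pooled the valves of 5 to 6 animals. No treatment or transgene was involved, so age was the difference by design. Pups and adults also differed in how death was ensured after CO2 (decapitation or cervical dislocation), a step that cannot be told apart from age here.

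Kruppel-like factors bind CACCC and GC-rich DNA through a run of zinc fingers at the C-terminus, and they differ mainly in their N-terminal regions, which recruit activators or repressors. KLF2 and KLF4 are best known in blood vessels and valves as factors that endothelial cells switch on under steady laminar flow, through the kinases MEKK3, MEK5 and ERK5 and the MEF2 factors. KLF9 and KLF15 are known as targets of glucocorticoid hormones, KLF10 as an early target of TGF-beta, and KLF3 as a repressor that works through the corepressor CtBP.

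Promoter sequences are shown for Klf2, Klf4, Klf6 and Klf15, which rose with age and whose upstream windows held a MEF2 motif or an E-box. Klf7 and Klf9 also rose with age, and their windows held neither motif. The sequences come from RefSeq (GRCm38.p6), in which 8 of the 10 members had an entry. No entry was found for Klf5 or for Klf10, the one member that fell. Each runs 5′ to 3′ on the strand of the gene and ends before the annotated start. Capitals mark the MEF2 motif in Klf2 and the E-box CACGTG in the others. The Klf2 window is chr8:72318812-72319032 on the plus strand, and 29 bases were left out because they lie within the Ensembl gene. The other windows hold 250 bases: chr4:55532476-55532725 on the minus strand for Klf4, chr13:5861239-5861488 on the plus strand for Klf6, and chr6:90462326-90462575 on the plus strand for Klf15.
Klf2: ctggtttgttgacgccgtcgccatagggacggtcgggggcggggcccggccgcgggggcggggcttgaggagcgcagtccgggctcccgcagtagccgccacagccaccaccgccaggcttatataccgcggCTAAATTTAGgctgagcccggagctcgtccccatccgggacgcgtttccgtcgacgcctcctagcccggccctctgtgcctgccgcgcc
Klf4: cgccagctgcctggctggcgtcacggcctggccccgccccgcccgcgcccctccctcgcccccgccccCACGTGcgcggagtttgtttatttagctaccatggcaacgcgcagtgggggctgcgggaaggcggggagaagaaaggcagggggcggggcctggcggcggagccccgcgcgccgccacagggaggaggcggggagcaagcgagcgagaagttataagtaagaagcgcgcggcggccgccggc
Klf6: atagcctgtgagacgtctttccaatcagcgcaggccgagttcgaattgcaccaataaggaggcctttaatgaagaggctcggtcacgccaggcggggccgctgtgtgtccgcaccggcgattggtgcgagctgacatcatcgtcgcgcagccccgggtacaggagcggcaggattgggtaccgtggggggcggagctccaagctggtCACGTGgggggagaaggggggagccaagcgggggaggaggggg
Klf15: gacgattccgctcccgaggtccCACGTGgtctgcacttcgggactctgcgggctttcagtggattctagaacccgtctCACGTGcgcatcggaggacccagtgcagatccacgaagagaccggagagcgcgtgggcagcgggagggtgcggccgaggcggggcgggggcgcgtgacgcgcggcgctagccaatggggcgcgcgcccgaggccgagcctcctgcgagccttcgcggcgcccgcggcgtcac

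Among 32851 promoters of the same length, searched on both strands over 250 upstream bases, the MEF2 motif was present in 0.508% and CACGTG in 6.02%. Klf2 was the one member whose window held the MEF2 motif, starting 118 bases upstream of its RefSeq start. CACGTG began 182 bases upstream of the start in Klf4, 43 in Klf6, and both 228 and 172 in Klf15. The family's own kind of binding letters were common, since CACCC was in 6 of the 8 member windows and in 52.0% of all promoters, and GGGCGG was in 7 of 8 and in 32.7%. TGACG, which lies within the longer TGACGTCA, was in 5 of 8 member windows and 17.8% of promoters, and the CCAAT box was in 4 of 8 and 33.8%. None of the 8 windows held TGACGTCA, TGAGTCA, the CArG box, TGTTCT, or the full inverted-repeat glucocorticoid response element, which contains TGTTCT. Those were in 1.55%, 4.46%, 1.47%, 16.1% and 0.00913% of all promoters. The search covered whole windows, including bases that lie within the Ensembl gene. These were 29 bases for Klf2, 133 for Klf3, and most of the window for Klf7. Outside the gene, the windows other than that of Klf7 were 59.6% (Klf9) to 79.5% (Klf3) GC. Over the 250 upstream bases of all promoters the median was 52.4%. The part of GC content in the shares above was not tested. A match is a match of letters in this window and was not tested as a binding site.

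The library totals ranged from 23810507 to 38994657 reads, and 100% of the RPKM values above 0 (read counts divided by exonic length and by library size) came out as whole reads within 0.01 when multiplied back. Libraries of an age correlated at 0.961 to 0.970 across genes, against 0.911 to 0.922 between ages. The first PND2 library stood apart in the median log2 ratio of 3′ to 5′ exon signal, 1.09 against 0.700 and 0.699 in the other PND2 libraries, while the 4-month libraries were at 0.915, 1.02 and 0.959. Of the valve cell markers, 9 of 11 endothelial genes were lower at 4 months and none was higher by limma (10 and 0 at an unadjusted p under 0.05 and by voom), and their summed level went from a range of 757 to 1027 RPKM to 455 to 466 RPKM. The endothelial count was 7 with no trend or with a floor at 10 reads, and 7 to 11 without single libraries. Smooth muscle markers, 5 of 6 of them higher, summed to 7155 to 8251 RPKM at PND2 and 16386 to 27405 RPKM at 4 months. Macrophage markers, 6 of 7 higher, summed to 194 to 247 and then 415 to 531 RPKM. Adipocyte markers, 5 of 7 higher, summed to 88.3 to 176 and then 269 to 592 RPKM, and Cidec and Lep among them were listed at 0 in every PND2 library. Markers of interstitial cells or fibroblasts, the main cells of the valve, summed to 6501 to 7152 and then 8033 to 10135 RPKM, with 2 of 8 higher and 4 lower. Cardiomyocyte markers were also plentiful, at 7536 to 9263 and then 4123 to 7856 RPKM, with 1 of 8 higher and 4 lower. Schwann markers were at 10.3 to 21.9 RPKM and then 37.2 to 45.1, with 2 of 4 higher. Erythroid sums were 1865 to 2598 RPKM and 750 to 2158 with none of 5 called by limma or voom (1 at an unadjusted p under 0.05, and 4 adjusted calls without the second 4-month library), mesothelial or epithelial sums were 173 to 254 RPKM and 118 to 168 with 1 of 5 lower, and lymphocyte sums were 1.70 to 2.96 RPKM and 2.39 to 6.14 with 3 of 6 higher. Over all genes tested, 14.7% were called higher and 21.1% lower by limma. The valves are mixtures, and in such bulk samples fewer cells of a type and less RNA per cell cannot be told apart.

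At PND2 the family's level was led by Klf2 and at 4 months by Klf6 and Klf2. RPKM is a level per length, so genes can be set side by side on this scale. The 10 members summed to 231.6 to 274.7 RPKM in the PND2 libraries and to 414.7 to 476.8 RPKM in the 4-month libraries, and these ranges did not overlap. At PND2 the order by mean level was Klf2, Klf6, Klf10, Klf4, Klf13, Klf3, Klf9, Klf7, Klf15 and Klf5, from 63.0 RPKM down to 0.620 RPKM. Neighbours in that order overlapped between Klf2 and Klf6, Klf6 and Klf10, Klf13 and Klf3, Klf3 and Klf9, and Klf9 and Klf7, and the other neighbours were separated. At 4 months the order was Klf6, Klf2, Klf9, Klf4, Klf15, Klf13, Klf7, Klf10, Klf3 and Klf5, from 112.8 RPKM down to 0.362 RPKM. Here the ranges of Klf6 and Klf2, of Klf9 and Klf4, and of each neighbouring pair from Klf15 to Klf3 overlapped. Among 16315 protein-coding genes tested, the mean of Klf9 lay at percentile 58.1 at PND2 and 90.2 at 4 months, that of Klf15 at 38.6 and 72.8, and that of Klf10 at 85.5 and 67.7. Klf2 was high at both ages, at percentiles 90.5 and 94.8.

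Of the 10 members, 6 rose with age (Klf2, Klf4, Klf6, Klf7, Klf9 and Klf15), 1 fell (Klf10), and 3 did not pass the test (Klf3, Klf5 and Klf13). Passing means an adjusted p under 0.05 in limma on log2(RPKM + 0.1), with Benjamini-Hochberg adjustment over 25903 genes. Across all genes tested 35.8% were called, 14.7% higher and 21.1% lower. With a fold over 2 in addition, 3 members were higher (Klf6, Klf9 and Klf15) and Klf10 was lower. Of all genes, 17.2% were called in this way, 8.72% higher and 8.47% lower. This count of 4 members became 5, with Klf4 added, under median scaling and quantile normalization. It was also 5 without the first or second 4-month library or the first PND2 library. In 7 members the ranges of the ages did not overlap, 6 upward and 1 downward, against 50.0% of all genes, 20.0% upward and 29.9% downward. The members' median log2 fold change was 0.73, beside −0.14 over all genes tested. Another scaling of the libraries shifts every gene: with median scaling the median over all genes moved by 0.12, and the share of calls that were higher went from 41.1% to 52.7%, while the 7 members were called as before.

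**Figure D1:**
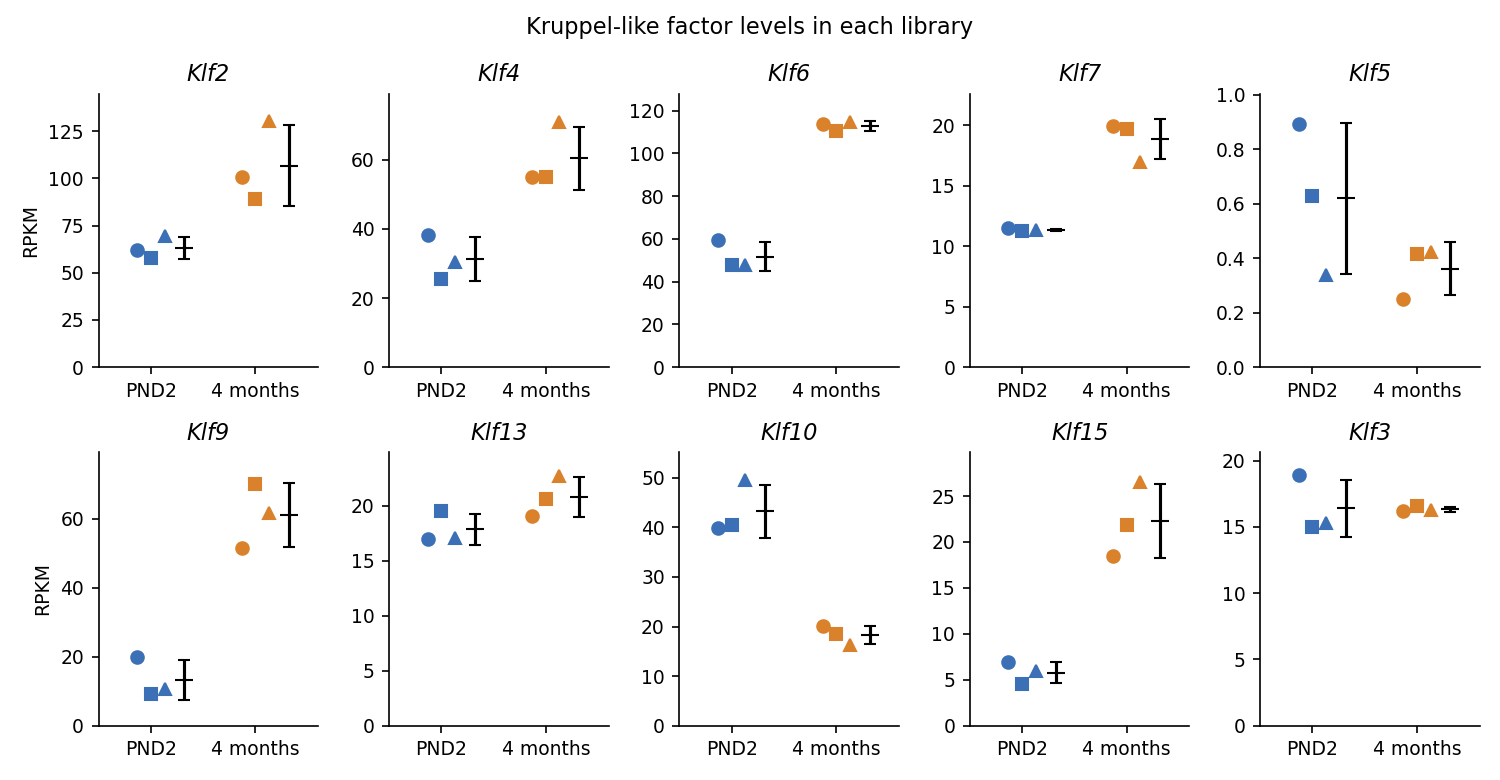
Level in RPKM of each of the 10 Kruppel-like factors in the 3 PND2 libraries (blue) and the 3 4-month libraries (orange), with circle, square and triangle for replicates 1 to 3 and the mean with its SD in black (each vertical axis starts at 0). Klf6 shows the widest upward gap in RPKM and Klf9 and Klf15 the largest rises as a ratio of means (4.59 and 3.85), Klf10 is the one gene whose 4-month points lie below all PND2 points, and the points of Klf3, Klf5 and Klf13 overlap.

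Klf2, the factor most closely tied to flow in endothelial cells (ENSMUSG00000055148, mm10 chr8:72319033-72321656, plus strand), was at 61.9, 57.8 and 69.4 RPKM at PND2. In the 4-month libraries it was at 101, 89.1 and 130.5 RPKM. Every 4-month library lay above every PND2 library, and the third 4-month library was the highest. The means were 63.0 ± 5.92 and 106.7 ± 21.4 RPKM (SD, n = 3 each), and the log2 fold change was 0.74 ± 0.15 (SE) with an adjusted p of 0.00879.

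Klf4, which shares many endothelial targets with Klf2 and is also a factor of pluripotent and epithelial cells (ENSMUSG00000003032, chr4:55527143-55532466, minus strand), was at 38.2, 25.5 and 30.4 RPKM at PND2. At 4 months it was at 55.1, 55.2 and 71.0 RPKM. Again the ages were separated, and the third 4-month library was again the highest. The log2 fold change was 0.95 ± 0.17 (SE) with an adjusted p of 0.00528, a ratio of mean RPKM of 1.92.

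Both genes rose while 9 of 11 endothelial markers fell. On the log2 scale, Klf2 minus the mean of the 11 endothelial markers was −0.15, 0.08 and −0.13 at PND2 and 1.58, 1.38 and 2.04 at 4 months. Klf4 minus the same mean was −0.84, −1.10 and −1.32 at PND2 and 0.72, 0.68 and 1.17 at 4 months. The libraries of the ages lay well apart in both measures. The difference was 1.73 for Klf2, a 3.32-fold shift, and 1.94 for Klf4, a 3.84-fold shift. A 2-sided exact permutation test gave p = 0.1 for each, which is the smallest value that 3 libraries against 3 allow. Klf2 and Klf4 are also made by other cells, macrophages and smooth muscle among them, and the summed markers of those cells were higher at 4 months, as given above. Their part in the result was not tested. With the median of the markers in place of their mean, the differences were 2.37 and 2.57.

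**Figure D2:**
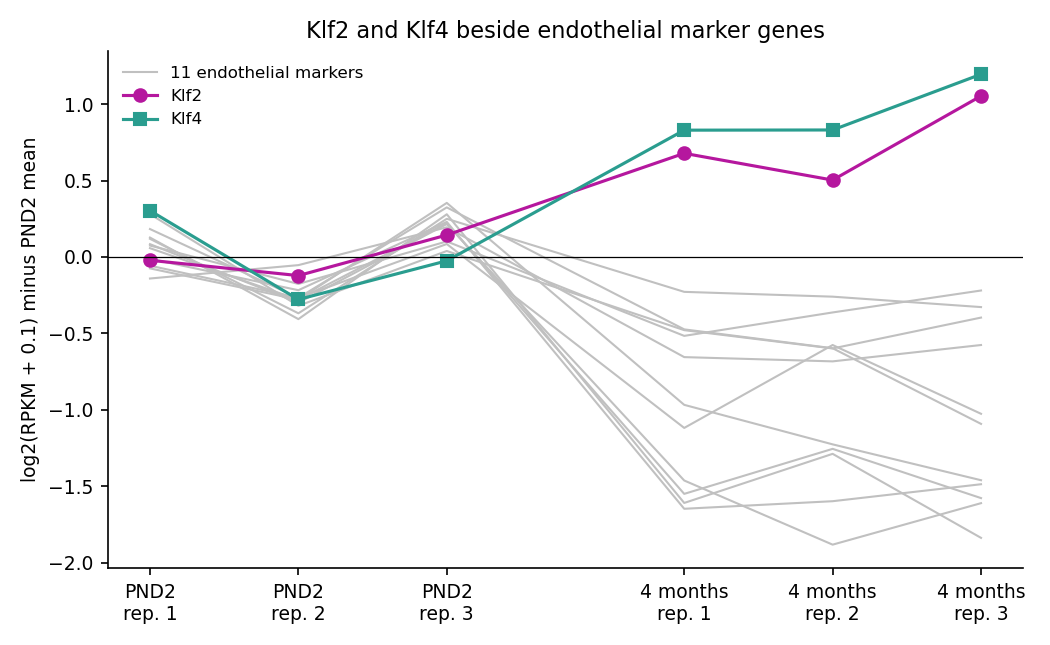
Klf2 (magenta circles), Klf4 (green squares) and 11 endothelial marker genes (grey lines) in each library, as log2(RPKM + 0.1) minus that gene's PND2 mean, with a line joining the values of each gene. At 4 months Klf2 and Klf4 lie above 0 and every endothelial marker lies below 0 in all 3 libraries.

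Genes of the pathway from flow to Klf2 and Klf4 moved in both directions. Of 15 genes in this list, 3 were higher and 6 lower at 4 months, beside 14.7% higher and 21.1% lower over all genes. The list holds genes of opposite roles, so these counts give no direction for the pathway. The list's median log2 fold change was −0.19, beside −0.14 over all genes. Piezo1, a stretch-activated channel, was at 42.1, 41.2 and 47.3 RPKM at PND2 and 20.8, 21.3 and 25.5 RPKM at 4 months, and fell by 0.95 on the log2 scale (adjusted p = 0.00102). Map2k5, which encodes MEK5, fell from 24.4, 23.1 and 27.0 RPKM to 16.1, 15.3 and 14.0 RPKM (log2 fold change −0.71, adjusted p = 0.00264). Ccm2l, an endothelial partner of the cerebral cavernous malformation complex, had a log2 fold change of −0.81 (adjusted p = 0.00584), and Mapk7, which encodes ERK5, had −0.57 (adjusted p = 0.0275). Heg1, the receptor that binds KRIT1, and Hdac7, a class IIa deacetylase that holds MEF2 down, fell as well. Mef2c, the MEF2 gene of this list that rose, went from 8.71, 8.71 and 9.69 RPKM to 14.5, 14.4 and 13.5 RPKM (log2 fold change 0.64, adjusted p = 0.00427). Hdac5, also a class IIa deacetylase that holds MEF2 down, rose by 0.56 on the log2 scale (adjusted p = 0.0309), and Map3k2 rose as well. Map3k3, which encodes MEKK3, was close to level at a log2 fold change of −0.05 (adjusted p = 0.648), and Krit1, Ccm2, Pdcd10, Mef2a and Mef2d did not pass the test. The count of 9 was sensitive to single libraries, with 4 called without the third library of either age and 5 without the second 4-month library.

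Genes known to be induced by KLF2 or KLF4 in endothelium moved in both directions, with 2 of 8 higher and 4 lower. Over all genes tested, 14.7% were called higher and 21.1% lower. Thbd (thrombomodulin, an anticoagulant receptor) rose from 52.3, 37.9 and 47.7 RPKM to 84.6, 84.3 and 84.0 RPKM (log2 fold change 0.89, adjusted p = 0.00207). Aqp1, a water channel, also rose, by a log2 fold change of 0.50 (adjusted p = 0.0181). Nos3, the endothelial nitric oxide synthase, fell from 72.0, 54.7 and 63.1 RPKM to 37.3, 33.2 and 47.4 RPKM (log2 fold change −0.69, adjusted p = 0.0141). Tek, the angiopoietin receptor, had the largest fall of the list, at −1.05 (adjusted p = 0.0022), and Ptgds, a prostaglandin D synthase, had −0.67 (adjusted p = 0.0187). S1pr1, a sphingosine-1-phosphate receptor, fell too, with −0.60 (adjusted p = 0.0154). Wnt9b, a KLF2 target of valve endothelium, was at a mean of 13.6 ± 6.55 RPKM at PND2 and 17.5 ± 4.97 RPKM at 4 months (SD, n = 3 each), and its ranges overlapped. Summed endothelial markers were lower at 4 months, as given above, and their part in the values of this list was not tested.

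Endothelial genes that KLF2 or KLF4 are known to hold down were split as well, with 1 of 6 higher and 3 lower. Over all genes tested, 14.7% were called higher and 21.1% lower. Edn1, the vasoconstrictor endothelin, was at 30.1, 30.5 and 42.5 RPKM at PND2 and at 9.18, 7.83 and 9.30 RPKM at 4 months, a log2 fold change of −1.94 ± 0.16 (SE) with an adjusted p of 2.3e-04. Ccl2, a monocyte attractant, and Sele, the endothelial selectin, also fell, by 1.09 and 0.67 on the log2 scale. Vcam1, a leukocyte adhesion molecule, rose by a log2 fold change of 0.89 (adjusted p = 0.00689). Selp, the selectin of platelets and endothelium, was at 0.81 and did not pass the test (adjusted p = 0.106). Angpt2 was at −0.07 and did not pass either (adjusted p = 0.868). The count of 4 called became 2 without the first or the second 4-month library. Summed endothelial markers were lower at 4 months, and their part in the falls of this list was not tested.

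Klf6, a broadly made factor that responds to injury and TGF-beta (ENSMUSG00000000078, chr13:5861489-5870393, plus strand), was at 59.5, 47.6 and 47.9 RPKM at PND2. It was at 113.7, 110.3 and 114.5 RPKM at 4 months, a narrow spread for its level. The ratio of means was 2.18, and the log2 fold change was 1.13 ± 0.11 (SE) with an adjusted p of 4.0e-04. With 5912 to 17905 reads per library, Klf6 was the most deeply read member.

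Klf7, known from neuron development and as a brake on fat cell formation (ENSMUSG00000025959, chr1:64029447-64122282, minus strand), was at 11.5, 11.3 and 11.4 RPKM at PND2 and 19.9, 19.7 and 17.0 RPKM at 4 months. The ages were separated, with a log2 fold change of 0.72 ± 0.11 (SE) and an adjusted p of 0.00245. A noncoding gene on the opposite strand, Gm26649, shares 3196 of the 8131 exonic bases of Klf7, or 39.3%, and was itself at 15.0, 13.8 and 13.2 RPKM and then 25.5, 24.4 and 20.8 RPKM. The library kit keeps strand, but whether the counting used it is not given in the sources used here, so the reads of the pair cannot be told apart in the shared part. A coding exon with no shared bases, chr1:64079103-64079334, was at 8.95, 10.3 and 9.72 RPKM and then 13.7, 17.6 and 13.4 RPKM, a log2 difference of 0.61. Of 6 annotated Klf7 exons with no shared bases, all 6 were higher at 4 months in mean, and in 3 the ages overlapped.

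Klf5, a factor of proliferating smooth muscle and epithelium (ENSMUSG00000005148, chr14:99298691-99313405, plus strand), was near the lower limit of the data. It was at 0.894, 0.628 and 0.338 RPKM at PND2 and 0.249, 0.415 and 0.422 RPKM at 4 months, from 60, 33, 17, 16, 17 and 21 reads. The ranges overlapped, and the log2 fold change of −0.59 ± 0.40 (SE) did not pass the test (adjusted p = 0.296).

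Klf9 had the largest rise of the members. This factor recruits the corepressor Sin3A and is induced by glucocorticoid and thyroid hormone (ENSMUSG00000033863, chr19:23141226-23166911, plus strand). It was at 20.0, 9.24 and 10.6 RPKM at PND2 and at 51.4, 70.0 and 61.6 RPKM at 4 months. The first PND2 library stood well above the other two, yet it stayed below every 4-month library. The ratio of means was 4.59, and the log2 fold change was 2.26 ± 0.28 (SE) with an adjusted p of 0.00118. Without the first PND2 library, the one with the high 3′ to 5′ ratio, the log2 fold change was 2.60 (adjusted p = 3.89e-04). In that library the last exon of Klf9 was at 24.6 RPKM and its first exon at 9.95 RPKM, against 10.4 and 12.4 RPKM, and 6.81 and 6.84 RPKM, in the other PND2 libraries.

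Klf13, another Sin3A-binding factor, known as a cardiac partner of GATA4 (ENSMUSG00000052040, chr7:63886351-63938915, minus strand), was at 17.0, 19.5 and 17.1 RPKM at PND2 and at 19.1, 20.6 and 22.8 RPKM at 4 months. The ranges overlapped, and the log2 fold change of 0.22 ± 0.11 (SE) had an adjusted p of 0.174.

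Klf10, also called TIEG1, was the one member that fell (ENSMUSG00000037465, chr15:38294413-38300707, minus strand). The protein is a TGF-beta early response factor that recruits Sin3A. Its level was 40.0, 40.5 and 49.5 RPKM at PND2 and 20.1, 18.5 and 16.3 RPKM at 4 months. The PND2 mean was 2.37 times the 4-month mean, and the log2 fold change was −1.24 ± 0.13 (SE) with an adjusted p of 5.3e-04. Klf11, the closest relative of Klf10 and itself induced by TGF-beta, also fell, from 18.2, 22.2 and 27.0 RPKM to 14.2, 10.6 and 10.7 RPKM (log2 fold change −0.91, adjusted p = 0.00784).

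Klf15, a factor of glucose and amino acid metabolism in muscle, liver and heart (ENSMUSG00000030087, chr6:90462576-90475238, plus strand), was at 6.88, 4.56 and 5.93 RPKM at PND2. At 4 months it was at 18.4, 21.9 and 26.5 RPKM. The lowest 4-month library was still far above the highest PND2 library. The ratio of means was 3.85, and the log2 fold change was 1.93 ± 0.20 (SE) with an adjusted p of 5.1e-04. Of 5 genes known as KLF15 targets, 3 were higher and none was lower by limma, beside 14.7% higher and 21.1% lower over all genes. Voom called 4 higher and none lower, and at an unadjusted p under 0.05 there were also 4 and 0. The count was 2 with no trend, with a replicate block, and without any single library other than the third PND2 library. Slc2a4, the insulin-responsive glucose transporter, rose from 13.8, 13.1 and 15.9 RPKM to 27.9, 43.7 and 33.1 RPKM (log2 fold change 1.27, adjusted p = 0.00178), and Gpt and Bcat2, aminotransferases of alanine and of branched-chain amino acids, had log2 fold changes of 1.26 and 0.31. Prodh, which breaks down proline, was at 0.57 and did not pass the test (adjusted p = 0.0597). Kcnip2, which encodes a potassium channel subunit, was at −0.18 with overlapping ages and did not pass either (adjusted p = 0.836). Slc2a4 is also an adipocyte and muscle gene, and the second 4-month library, its highest, held the highest adipocyte sum (592 RPKM, against 269 and 273). Klf15 was in the middle in that library, and every adipocyte sum at 4 months lay above every sum at PND2. The part of these cells in the change was not tested.

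Klf3, the CtBP-dependent repressor (ENSMUSG00000029178, chr5:64803388-64832901, plus strand), had nearly the same mean at both ages. It was at 18.9, 15.0 and 15.3 RPKM at PND2 and at 16.2, 16.5 and 16.3 RPKM at 4 months. The log2 fold change was 0.00 ± 0.12 (SE) with an adjusted p of 0.994, and its sign turned when single libraries were left out. The closely related Klf8 and Klf12 did not pass the test either, with log2 fold changes of 0.21 and 0.13 (adjusted p = 0.526 and 0.637).

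The exons of the members that changed moved with their genes. Over the 7 called members, 39 of 41 distinct annotated exons reached 1 RPKM in 3 libraries, all 39 had the sign of the gene, and in 36 the ages did not overlap. The 3 exons in which they overlapped were all of Klf7. Klf9 was the most even, with log2 differences of 2.22 and 2.28 in its first and last exons. Klf4 ranged from 0.88 to 1.06 over 9 exons, and Klf6 from 0.98 to 1.17 over 4. In Klf10 the fall was largest in the first exon, from 24.4, 20.9 and 26.6 RPKM to 10.4, 4.23 and 4.41 RPKM, a difference of −2.02 beside −1.18 in the last exon. Klf2 had its largest difference, 1.05, in the first exon, where the first PND2 library was at 24.8 RPKM and the other two at 45.7 and 51.1 RPKM. Klf15 ranged from 1.65 to 2.86 over 9 exons, and the highest of these was a noncoding exon at most at 2.23 RPKM. Klf3 had none of 19 exons separated by age, 5 with the sign of the gene, and a median difference of −0.13. Its lowest difference, −0.52, was in a noncoding exon that lies wholly within exons of Gm20033 on the opposite strand. Gm20033 shares 404 of the 11243 exonic bases of Klf3. With a lower limit of 0.1 RPKM, 40 of 41 exons of the 7 called members had the sign of the gene. Annotated exons of a gene can overlap each other, so they are not independent counts.

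**Figure D3:**
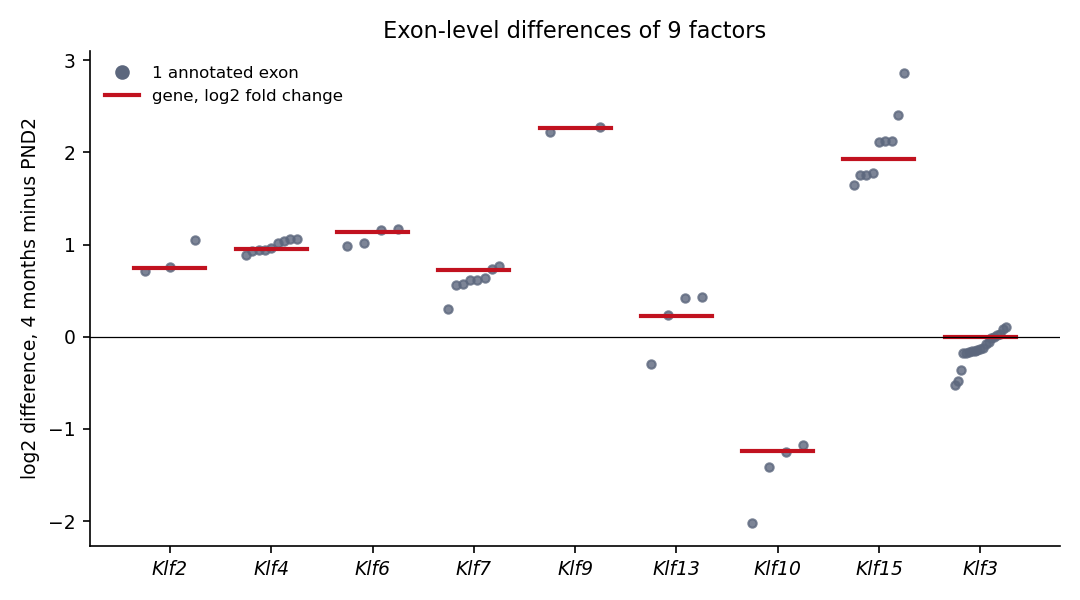
Each point is 1 annotated exon of 9 members, as the difference in mean log2(RPKM + 0.1) between 4 months and PND2, and each red bar is the log2 fold change of the whole gene. Exons of Klf2, Klf4, Klf6, Klf7, Klf9 and Klf15 all lie above 0, those of Klf10 all lie below 0, and those of Klf3 run from −0.52 to 0.10, most of them below 0. Klf5 had no exon that reached 1 RPKM in 3 libraries.

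Among the other KLF and SP genes, 1 was higher and 4 were lower of 14 tested, where 35.8% of all genes were called, and the median log2 fold change was 0.12. The balance turned with the scaling of the libraries, with 4 higher and 3 lower under median scaling and 2 and 3 under quantile normalization. Sp7, the osteoblast factor osterix, rose at a very low level, from 7, 11 and 23 reads to 81, 33 and 109 reads. Klf14, a Sin3A-binding relative, had 36, 21 and 22 reads at PND2 and 0, 3 and 1 at 4 months. Sp5, a Wnt target, fell from 0.782, 1.34 and 1.59 RPKM to 0.523, 0.0800 and 0.280 RPKM (adjusted p = 0.0257). Sp3, a broadly made activator and repressor, was at a mean of 39.6 ± 2.15 RPKM and then 31.7 ± 2.97 RPKM (SD, n = 3 each; log2 fold change −0.32, adjusted p = 0.0452). Sp4 and Sp2, with log2 fold changes of 0.51 and 0.46, did not pass the test (adjusted p = 0.0669 and 0.0887). Sp1, the ubiquitous relative of Sp3, did not pass the test (log2 fold change 0.22, adjusted p = 0.165). Klf17 and Sp8 had no reads at PND2 and were not tested. The count of 5 fell to 2 without the second PND2 or the third 4-month library and to 3 without the third PND2 or the second 4-month library.

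**Figure D4:**
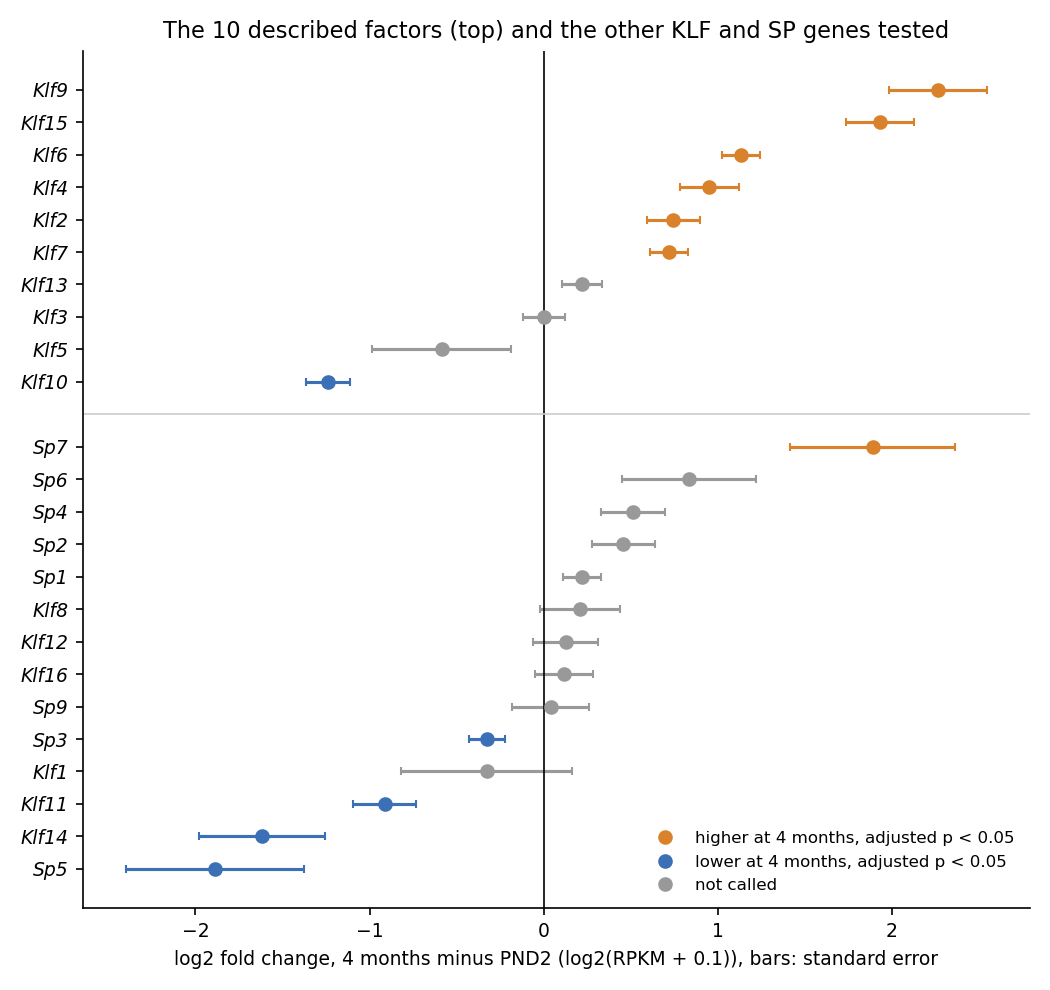
Log2 fold change, 4 months minus PND2, with its standard error for the 10 members (above the grey line) and the 14 other KLF and SP genes tested (below it), in orange where higher, blue where lower and grey where the adjusted p was 0.05 or more. Klf9 and Klf15 have the largest rises of the members, and Klf10 and Klf11 both lie below 0.

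Partners of these factors were called about as often as genes at large. Of 18 cofactor and ubiquitin ligase genes, none was higher and 6 were lower at 4 months by limma, beside 35.8% called over all genes. At an unadjusted p under 0.05, 1 was higher and 7 were lower, voom on whole reads called none higher, and median scaling called 1 higher and 5 lower. The median log2 fold change over the 18 was −0.15, beside −0.14 over all genes. Hdac2, the deacetylase of the Sin3 and other complexes, fell from 60.0, 60.4 and 59.7 RPKM to 33.5, 35.1 and 30.8 RPKM (log2 fold change −0.86, adjusted p = 4.8e-04). Kdm1a, a histone demethylase, Sin3b, a scaffold that binds the KLF9 group, and Ctbp2, a corepressor of KLF3, had log2 fold changes of −0.71, −0.57 and −0.51. Hdac3 and Btrc fell as well. Sin3a, Ctbp1, Crebbp and Ep300 did not pass the test.

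Groups of genes that respond quickly to stimuli moved beside the members. Of 15 immediate early genes, 12 were higher and 1 (Ier3) was lower at 4 months, beside 14.7% higher and 21.1% lower over all genes. The list's median log2 fold change was 1.75, and its summed level went from 437 to 557 RPKM up to 1576 to 2202 RPKM. Atf3 rose from 15.8, 9.49 and 6.87 RPKM to 133, 125 and 213 RPKM (log2 fold change 3.90, adjusted p = 2.3e-04), and Fosb, Nr4a1 and Fos had log2 fold changes of 3.52, 3.29 and 2.85. Klf2, Klf4, Klf6 and Klf10 are themselves known as quickly induced genes, and of these Klf10 went the other way. The part of tissue handling in these levels was not tested.

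Of 16 circadian clock genes, 10 were higher and 2 were lower at 4 months, beside 14.7% higher and 21.1% lower over all genes. The count of 12 called was 9 with no trend and 8 to 10 without single libraries. Nr1d1, a repressor in the clock, rose from 12.5, 20.0 and 22.9 RPKM to 119.5, 105 and 121 RPKM (log2 fold change 2.68, adjusted p = 2.1e-04). Dbp, a clock output factor, and Npas2, a partner of BMAL1, had log2 fold changes of 2.12 and 1.49, while Cry1, a repressor, fell by 2.27 on the log2 scale. Klf9, Klf10 and Klf15 are known to follow the clock in other tissues. The hour at which valves were taken is not given in the sources used here, and its part in the levels of these members was not tested.

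Among 8 glucocorticoid responsive genes, 3 were higher (Errfi1, Mt2 and Cdkn1a) and none was lower by limma, beside 35.8% called over all genes. At an unadjusted p under 0.05, 5 were higher and 1 was lower, and voom called 4 and 0. In the summed level of this list the first PND2 library stood above the other PND2 libraries, as it did for Klf9. That library, the one with the high 3′ to 5′ ratio, was also the highest at PND2 for Klf3, Klf4, Klf5, Klf6, Klf7 and Klf15. Errfi1, a feedback inhibitor of the EGF receptor, had the largest change, from 15.2 to 16.6 RPKM at PND2 to 45.2 to 70.7 RPKM at 4 months (log2 fold change 1.83, adjusted p = 3.0e-04). Cdkn1a, a cell cycle inhibitor, had a log2 fold change of 1.28 (adjusted p = 0.00222). In these genes the ages did not overlap. The summed level was 237, 137 and 132 RPKM at PND2 and 259, 334 and 450 RPKM at 4 months. Fkbp5, a chaperone gene that responds strongly to glucocorticoids, was at 24.4, 7.99 and 7.06 RPKM at PND2, and was lower in all 4-month libraries, at 6.02, 4.53 and 4.99 RPKM (adjusted p = 0.0928). Mt2, a metallothionein, was at 59.4, 12.8 and 17.5 RPKM and then 70.6, 59.1 and 101 RPKM (log2 fold change 1.66, adjusted p = 0.0459), and its lowest 4-month library lay just under its first PND2 library. Zbtb16, a zinc-finger repressor, was at 8.04, 1.31 and 1.84 RPKM and then 5.63, 10.6 and 8.50 RPKM (adjusted p = 0.0978). Fkbp5 and Klf9 shared the high first PND2 library but not the direction with age. Hormone levels were not measured.

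**Figure D5:**
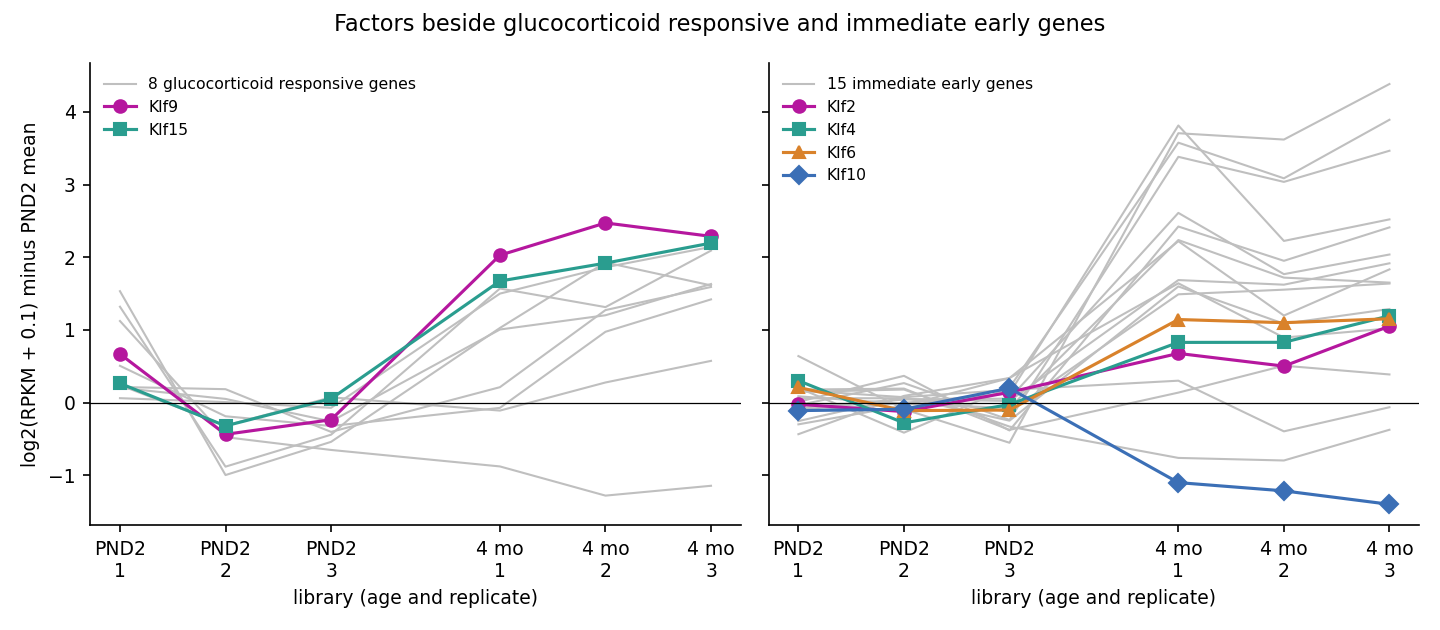
Left, Klf9 and Klf15 beside 8 glucocorticoid responsive genes, and right, Klf2, Klf4, Klf6 and Klf10 beside 15 immediate early genes, each as log2(RPKM + 0.1) in each library minus that gene's PND2 mean, with grey lines for the list genes. Klf4, Klf6, Klf9, Klf15 and several glucocorticoid responsive genes are highest among PND2 libraries in replicate 1. Klf10 lies below every immediate early gene of the list at 4 months.

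The genes whose pattern over the 6 libraries was most like that of a member, by Pearson correlation of log2(RPKM + 0.1) among 14206 genes with a mean of at least 5 RPKM, are named as a description. For Klf2 they were Gm12841 (0.9911), Gm10382 (0.9869) and Ddit3 (0.9868), for Klf4 Gm15135 (0.9922), Lpar1 (0.9916) and Herpud2 (0.9909). For Klf9 they were mt-Tq (0.9975), Cr1l (0.9968) and Dirc2 (0.9966), and for Klf10 Sox4 (0.9988), Wbp1l (0.9985) and Cct5 (0.9980). Sox4, a factor of progenitor cells, went from 41.2, 42.3 and 59.4 RPKM to 9.50, 9.07 and 7.04 RPKM. The 6 points fall into 2 age groups, so any gene that differs by age with small spread scores high on this measure.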

How the data were processed

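RNA-seq was performed on aortic valves at PND2 and 4 months, with 3 pooled libraries per age, grouped by their labels. The authors filtered and trimmed paired reads, aligned them to mm10 with TopHat2 2.1.0, and used easyRNASeq to count per Ensembl gene and per exon. RPKM values were deposited as they stood before the authors' read minimum and floor. Summed gene reads exceed the library totals, so reads count at several features, and treatment of strand is not given in the sources used here.

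Fold changes (4 months minus PND2), on the log2(RPKM + 0.1) scale, which understates changes of low genes, came from limma 3.58.1 in R 4.3.3 (eBayes with trend) on genes at 0.1 RPKM or more in 3 libraries, with 2-sided p-values adjusted over all genes tested. Whole reads were recovered for depth and for a voom alternative. Tables, permutation tests and figures used Python 3.11.15, pandas 2.3.3, scipy 1.17.1 and matplotlib 3.10.9. The fit was tested on simulated data. Alternatives were pseudocounts of 1 and 0.01, other filters, no trend, a per-gene unequal-variance test of the study's kind, median and quantile scaling, a floor at 10 reads, voom, a replicate block, and each library left out in turn. Labels call the libraries biological replicates.

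Members and lists were chosen with earlier results of these data known. All members are named. Of a pathway list, any gene may be named, and where values are given for only some, they include the up to 4 largest changes among genes with a mean of at least 1 RPKM at 1 age. Marker lists are given by counts and sums. A listed gene is not reported here and was left out of its list.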

Additional observations from a re-analysis of the deposited data

How the results depend on the processing

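Each member was refitted under 17 alternatives (16 for Klf5, which an RPKM of at least 1 removes). Klf10 and Klf15 were called in all 17 and Klf3, Klf5 and Klf13 in none. Klf2, Klf4, Klf6, Klf7 and Klf9 were called in 16, the exception being the per-gene unequal-variance test, where their adjusted p were 0.0986, 0.0661, 0.0525, 0.06 and 0.0672. That test called 2 members, 2 with a fold over 2, 1 other KLF or SP gene, and 3408 genes in place of 9273; it estimates the spread of each gene from 3 libraries per age. Other KLF and SP genes called were 5, against 2 with an RPKM of at least 1, which tests fewer genes, and 2 to 4 without single libraries. Without single libraries Klf3 ran from −0.059 to 0.107, turning sign without the second 4-month library (−0.0079), the second PND2 library or the third PND2 library (−0.043). Relative to the median of the endothelial markers, Klf2 and Klf4 moved to 2.37 and 2.57 from 1.73 and 1.94; without single libraries they were 1.55 to 1.88 and 1.79 to 2.06. Deviations of same-numbered libraries correlated at 0.04, −0.06 and −0.16, and those of differently numbered libraries at −0.18 to 0.23. With so few libraries this cannot exclude shared handling of same-numbered libraries. A replicate block called the same 7 members, 7167 genes, and 3 other KLF and SP genes. Of the gene lists, the flow pathway went from 9 called to 5 with no trend or with the block. The per-gene test called 4 of that pathway, 1 induced and 1 held-down endothelial gene, 1 KLF15 target, 3 cofactors, 7 immediate early, 1 glucocorticoid responsive and 3 clock genes, and 4 endothelial markers. Without the first 4-month library, mesothelial or epithelial calls went from 1 to 2 and Schwann calls from 2 to 1. The causes of these shifts were not tested. The lowest library total was 23810507 reads, and Klf5 had 16 to 60 reads per library.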
